A study of Mus musculus with 6 samples.

Results

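The 10 genes described here make and load MHC class I molecules. H2-K1 and H2-D1 encode the classical class I heavy chains of the C57BL/6 mouse, and B2m encodes their light chain. Tap1, Tap2 and Tapbp encode the peptide transporter and tapasin, Psmb8, Psmb9 and Psmb10 the catalytic subunits of the immunoproteasome, and Nlrc5 a transactivator of class I genes. They were chosen by name from the 33965 genes of the table, and all 10 passed the filter on low counts that left 19602 genes for the test. The lowest count of any of them in any tumor was 51.

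Class I molecules carry peptides cut from proteins of the cell to its surface, where CD8+ T cells read them. The proteasome cuts the peptides, TAP pumps them into the endoplasmic reticulum, and tapasin holds an empty heavy chain and its light chain at the transporter until a peptide binds. Interferons raise the transcription of most of these genes, and under interferon gamma the immunoproteasome subunits take the place of Psmb5, Psmb6 and Psmb7, the catalytic subunits of the constitutive proteasome.

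RNA was sequenced from 6 MC38 tumors, grown from a mouse colon carcinoma cell line under the skin of C57BL/6 mice. The mice of 3 tumors received PBS, the vehicle, and those of the other 3 received GB2, a prodrug of artesunate linked through a disulfide bond to MSA-2, an agonist of STING. The methods of the study describe female mice, bought at 6 weeks of age. The labels give neither the dose nor the time of collection. They do not state that the tumors came from separate mice either, so a p-value measures only the spread between these samples. Whole tumors were sequenced, and a lower level in such a sample cannot tell fewer expressing cells from less RNA per cell.

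The total counts ranged from 64764405 to 69878156 for PBS and from 81210553 to 83690056 for GB2. Levels are given as CPM, a gene's share of the library scaled to a fixed total, after TMM scaling where 1 gene is followed across tumors, and as FPKM, which also divides by the length of the transcript, where genes are compared with each other. PBS tumor 1 had the highest CPM of the 6 tumors in 31.8% of the genes tested. The summed CPM of 6 erythroid marker genes was 7475 in PBS tumor 1, 2693 and 507 in PBS tumors 2 and 3, against 1271, 116 and 94.7 in GB2 tumors 1 to 3. The summed CPM of 8 colon and epithelial markers was low in every tumor, between 6.63 and 13.8, and the intestinal factor Cdx2 had 3 counts in PBS tumor 3 and 0 in the others.

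The sequences around the transcription starts are shown for 5 of the genes, because interferon and NF-kappa B elements are textbook features of class I promoters. Each run holds 250 bases before and 50 bases from the start, 5′ to 3′ on the strand of the gene, from RefSeq on GRCm38.p6. Capitals mark matches to the core of an interferon-stimulated response element (GAAANNGAA), a gamma-activated site (TTCNNNGAA) or a kappa B site (GGGNNTTCC), searched on both strands. The H2-K1 window lies at chr17:34000284-34000583 on the minus strand, H2-D1 at chr17:35262844-35263143, B2m at chr2:122147437-122147736, Psmb8 at chr17:34197945-34198244 and Tap1 at chr17:34187306-34187605, the last 4 on the plus strand.
H2-K1: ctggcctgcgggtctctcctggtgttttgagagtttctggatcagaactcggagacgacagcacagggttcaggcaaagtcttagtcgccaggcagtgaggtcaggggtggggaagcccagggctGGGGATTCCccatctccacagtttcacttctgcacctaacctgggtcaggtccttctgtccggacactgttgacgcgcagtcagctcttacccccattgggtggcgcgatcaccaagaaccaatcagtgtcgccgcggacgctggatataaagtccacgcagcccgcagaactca
H2-D1: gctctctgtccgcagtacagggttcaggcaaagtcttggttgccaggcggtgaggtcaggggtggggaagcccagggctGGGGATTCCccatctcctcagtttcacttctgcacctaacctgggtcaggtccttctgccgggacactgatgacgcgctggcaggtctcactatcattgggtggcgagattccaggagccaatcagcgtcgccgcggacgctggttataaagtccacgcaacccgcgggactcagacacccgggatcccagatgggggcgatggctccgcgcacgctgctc
B2m: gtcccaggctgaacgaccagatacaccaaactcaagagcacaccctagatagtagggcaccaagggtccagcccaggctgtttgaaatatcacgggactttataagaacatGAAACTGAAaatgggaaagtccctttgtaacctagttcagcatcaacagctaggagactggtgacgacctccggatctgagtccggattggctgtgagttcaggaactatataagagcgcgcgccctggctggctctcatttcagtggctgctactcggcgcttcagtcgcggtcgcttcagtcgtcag
Psmb8: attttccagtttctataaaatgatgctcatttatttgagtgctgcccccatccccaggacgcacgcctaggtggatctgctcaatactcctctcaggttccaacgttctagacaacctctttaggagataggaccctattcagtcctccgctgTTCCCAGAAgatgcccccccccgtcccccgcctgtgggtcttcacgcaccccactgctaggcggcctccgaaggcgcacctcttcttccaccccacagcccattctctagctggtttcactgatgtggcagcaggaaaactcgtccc
Tap1: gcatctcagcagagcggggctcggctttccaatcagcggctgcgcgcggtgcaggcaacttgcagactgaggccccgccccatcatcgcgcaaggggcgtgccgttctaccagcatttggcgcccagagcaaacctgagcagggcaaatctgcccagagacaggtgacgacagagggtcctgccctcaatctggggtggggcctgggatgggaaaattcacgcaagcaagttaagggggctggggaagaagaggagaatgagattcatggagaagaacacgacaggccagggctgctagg

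H2-K1 and H2-D1 held the same kappa B match, GGGGATTCC, from base -125 to -117 and from -171 to -163 relative to the start. B2m held a match to the interferon core, GAAACTGAA, from -139 to -131, and Psmb8 one to the gamma-activated site, TTCCCAGAA, from -97 to -89. None of the 3 motifs was found in the Tap1 window. RefSeq gave a window for 8 of the 10 genes, all but Tap2 and Nlrc5, with 2 overlapping windows for H2-K1. The windows of Tapbp, Psmb9 and Psmb10 did not hold these letters either. Over all 32851 windows of the same length, 8.56% matched the interferon core, 8.30% the gamma-activated site and 5.82% the kappa B core. Of the 9 windows of these genes, 1, 1 and 3 did so, the last being the windows of H2-K1 and H2-D1. These counts hold only for the letters searched. Elements spelled otherwise, such as a kappa B site of 10 bases or an interferon element in other letters, were not searched for. A window without a match is therefore not shown to lack the element. The CCAAT box was in 7 of the 9 windows and in 37.4% of all windows. No match in these windows overlapped a match to another of the motifs. The windows of Tap1 and Psmb9 lie head to head and share 275 bases.

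In the deposited table, Psmb9 (ENSMUSG00000096727, chromosome 17 from 34400961 to 34406738, minus strand), Tap1 (ENSMUSG00000037321, 34406527 to 34416199), Psmb8 (ENSMUSG00000024338, 34416695 to 34420428) and Tap2 (ENSMUSG00000024339, 34422501 to 34435295) follow each other. Tapbp (ENSMUSG00000024308, 34134873 to 34145171), H2-K1 (ENSMUSG00000061232, 34214991 to 34219321, minus strand) and H2-D1 (ENSMUSG00000073411, 35481706 to 35486475) lie on the same chromosome. B2m (ENSMUSG00000060802) lies on chromosome 2 from 121978167 to 121983564. Psmb10 (ENSMUSG00000031897, 106662367 to 106664736, minus strand) and Nlrc5 (ENSMUSG00000074151, 95160984 to 95253900) lie on chromosome 8. These positions differ from those of GRCm38 for all 10 genes and are given as the table has them, so they are not to be set beside the positions of the promoters. Psmb9 and Tap1 overlap by 212 bases on opposite strands, so reads from there could be counted for either gene if strand was not used.

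In mean FPKM the light chain B2m stood first, with 546 ± 332 for PBS and 596 ± 275 for GB2 (SD, n = 3 each). H2-D1 followed at 114 ± 71.0 and 135 ± 77.9, and H2-K1 at 82.8 ± 38.2 and 69.2 ± 31.7. H2-D1 exceeded H2-K1 in 5 of the 6 tumors, all but PBS tumor 3. Psmb10, at 15.0 and 13.9 FPKM, and Tapbp, at 13.1 and 14.9, came next, and Psmb10 was the higher of them in 4 of the 6 tumors. The remaining 5 genes lay between 2.80 and 7.87 FPKM in both groups, with Nlrc5 lowest in PBS tumors and Psmb8 lowest in GB2 tumors, and their order changed between tumors, with Tap2 highest in PBS tumor 1 and Tap1 in GB2 tumor 3. Stretches of 75 bases that also occur in transcripts of other genes made up 6.15% of the H2-D1 and 1.12% of the H2-K1 transcripts, mostly shared with other class I genes, and 1.36% of those of Tapbp, so a small part of their reads could be counted under a neighbour.

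The comparison of GB2 with PBS tumors asks whether the treatment was accompanied by another level of class I genes. None of the 10 genes passed the test, and in none did the GB2 tumors lie apart from the PBS tumors. The differences were small beside the spread between tumors of 1 group, as the plot of every tumor's CPM shows.

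**Figure D1:**
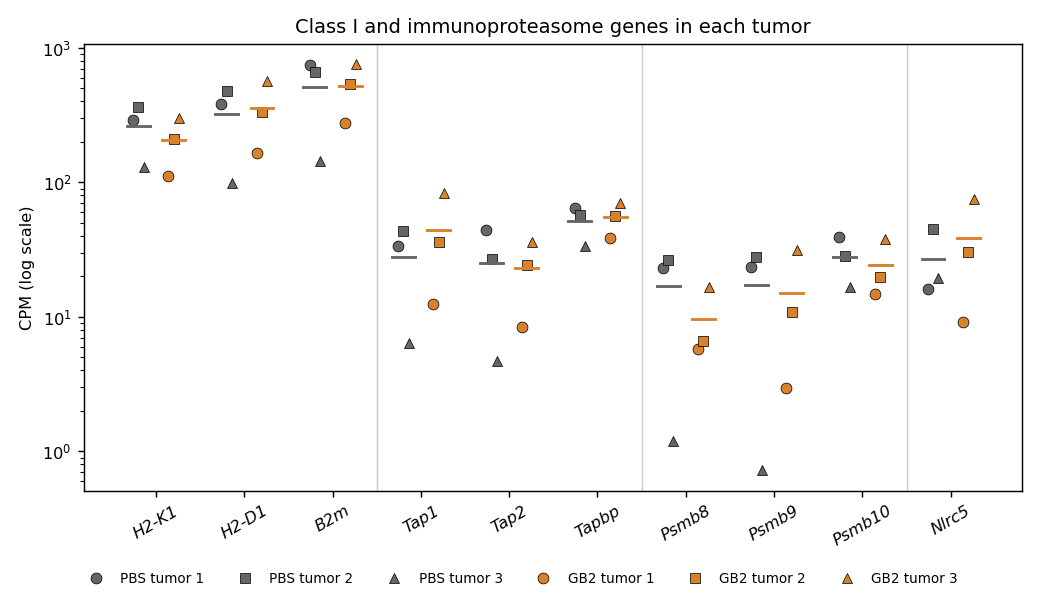
CPM of the 10 genes in each tumor, on a log scale, with PBS tumors in grey and GB2 tumors in orange. Horizontal lines are group means, symbols mark tumors 1 to 3 of a group, and vertical lines separate chains, transport and loading, immunoproteasome, and transactivator. PBS tumor 3 lies far below the other PBS tumors in Psmb8 (1.19 CPM) and Psmb9 (0.721 CPM).

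H2-K1, a heavy chain, had 293, 365 and 131 CPM in PBS tumors 1 to 3 and 112, 211 and 300 CPM in GB2 tumors 1 to 3. The lowest tumor was a GB2 tumor and the highest a PBS tumor, with the other values of both groups between them. Its log2 fold change, GB2 over PBS, was -0.34 (SE 0.45, 95% interval -1.40 to 0.71), and its adjusted p was 0.868 (quasi-likelihood fit of edgeR, adjusted by Benjamini and Hochberg's method over all genes tested, as for the adjusted p values that follow).

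H2-D1, the other heavy chain, had 385, 476 and 99.7 CPM in PBS tumors, against 165, 336 and 567 CPM in GB2 tumors. PBS tumor 3 was lowest and GB2 tumor 3 highest, so the PBS values lay within and below the range of the GB2 values. GB2 over PBS gave a log2 fold change of 0.15 (SE 0.61, 95% interval -1.27 to 1.58, edgeR adjusted p 0.951).

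B2m, the light chain, had 745, 656 and 144 CPM in PBS tumors, against 277, 538 and 755 CPM in GB2 tumors. PBS tumor 3 again stood lowest, while PBS tumor 1 and GB2 tumor 3 were nearly level at the top. The means of 515 ± 325 and 523 ± 239 CPM (SD, n = 3) differed by a log2 fold change of 0.02 (SE 0.60, 95% interval -1.37 to 1.42, edgeR adjusted p 0.993). For each of these 3 genes the interval reached past a 2-fold change in at least 1 direction.

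Tap1 and Tap2 together form the peptide transporter. Tap1 had 33.8, 43.3 and 6.39 CPM in PBS tumors, against 12.5, 36.0 and 83.3 CPM in GB2 tumors. GB2 tumor 3 had the highest value and PBS tumor 3 the lowest. The log2 fold change of 0.66 (SE 0.80, 95% interval -1.20 to 2.51, edgeR adjusted p 0.859) was the highest of the 10 genes.

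Tap2 had 44.1, 26.8 and 4.72 CPM in PBS tumors, against 8.46, 24.1 and 36.2 CPM in GB2 tumors. Here the highest value was that of PBS tumor 1, and the lowest was again that of PBS tumor 3. Its fitted log2 fold change was -0.14 (SE 0.77, 95% interval -1.93 to 1.66, edgeR adjusted p 0.966), and its sign changed in limma's fits of log2 FPKM and with the tumor left out.

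Tapbp, the tapasin gene, had 64.3, 57.0 and 33.6 CPM in PBS tumors, against 38.6, 56.4 and 70.7 CPM in GB2 tumors. It kept the same tumors low and high as Tap1, but within a range of about 2-fold. With the smallest spread of the 10 genes it had the narrowest interval, -0.62 to 0.81 around a log2 fold change of 0.10 (SE 0.31, edgeR adjusted p 0.940), which leaves out a 2-fold change in either direction.

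Psmb8, an immunoproteasome subunit, had 23.2, 26.3 and 1.19 CPM in PBS tumors, against 5.80, 6.64 and 16.5 CPM in GB2 tumors. PBS tumors 1 and 2 lay above every GB2 tumor and PBS tumor 3 lay below every one, with 84 counts against 487 to 1406. Between the groups the log2 fold change was -0.81 (SE 0.93, 95% interval -2.97 to 1.36, edgeR adjusted p 0.853). Without PBS tumor 3 it was -1.36 with an unadjusted p of 0.0229 and an adjusted p of 0.455 in the same edgeR test, a fit in which 2204 of 20695 genes reached an unadjusted p under 0.05, so 1 gene in 10 is near the background.

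Psmb9, another of the subunits, had 23.4, 28.0 and 0.721 CPM in PBS tumors, against 2.98, 10.95 and 31.4 CPM in GB2 tumors. Its range was the widest of the 10 genes, with a highest value 38.9 times the lowest among the PBS tumors and 10.6 times among the GB2 tumors. The log2 fold change was -0.20 (SE 1.16, 95% interval -2.90 to 2.50, edgeR adjusted p 0.967).

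Psmb10, the third subunit, had 39.0, 28.4 and 16.7 CPM in PBS tumors, against 14.7, 19.8 and 38.0 CPM in GB2 tumors. It spread far less than the other subunits, and the highest values of the groups were level. The log2 fold change was -0.21 (SE 0.42, 95% interval -1.20 to 0.77, edgeR adjusted p 0.908).

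Nlrc5, the transactivator, had 16.1, 44.7 and 19.6 CPM in PBS tumors, against 9.21, 30.5 and 75.2 CPM in GB2 tumors. The GB2 tumors held both the lowest and the highest value, 8.17 times apart, against 2.78 times in the PBS tumors. The log2 fold change was 0.52 (SE 0.71, 95% interval -1.13 to 2.16, edgeR adjusted p 0.874).

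In all, 5 of the 10 genes had a fitted value above 0 and 5 below, where 48.3% of all genes tested were above. Their median log2 fold change was -0.06, beside -0.02 over all genes tested. At an adjusted p under 0.05 and a change of at least 2-fold, 0 of the 10 were called, and 0% of all genes tested were called by edgeR. At an unadjusted p under 0.05 the count was again 0 of 10, where 1360 genes, or 6.94% of those tested, reached it, 920 higher and 440 lower in GB2 tumors. DESeq2 called 373 genes, but 0 of the 10, with a lowest unadjusted p of 0.383 among them, and limma on log2(FPKM + 1) called 0. The groups did not overlap in 0 of the 10 genes and in 15.3% of all genes tested.

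**Figure D2:**
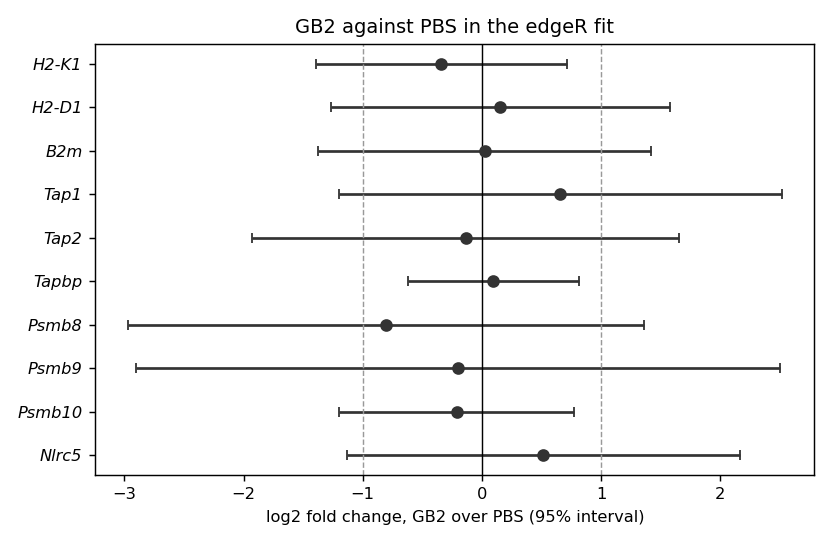
Log2 fold change of GB2 over PBS tumors for each gene from the edgeR fit, with its 95% interval as a bar. The solid line marks no change and the dashed lines a 2-fold change. All 10 intervals include 0, and that of Tapbp alone stays between the dashed lines.

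The tumors of 1 group differed from each other in the 10 genes. The SD of log2 CPM within groups had a median of 1.14 over the 10 genes and of 0.414 over all genes tested. It was above that median in all 10 genes and higher than in at least 73.6% of genes in all but Tapbp, at 56.8%. Psmb9, with an SD of 2.41, exceeded 99.0% of the genes tested and Psmb8, with 1.87, exceeded 97.3%, whereas that of Tapbp was 0.47. The mean log2 CPM of the 10 genes was 6.13, 6.26 and 3.91 in PBS tumors 1 to 3 and 4.55, 5.62 and 6.51 in GB2 tumors 1 to 3. The groups differed by 0.13 in this mean, against an SD of 1.32 between the PBS and 0.98 between the GB2 tumors.

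The same tumors were low in most of the genes. PBS tumor 3 and GB2 tumor 1 held the lowest pair of values in 9 of the 10 genes, while they did so in 6.13% of all genes tested. This pattern was noticed in the values and is given as a description, with no test. Nlrc5 was the exception, since its lowest pair was GB2 tumor 1 and PBS tumor 1. PBS tumor 3 was lowest in 7 genes and GB2 tumor 1 in the other 3, which were H2-K1, Psmb10 and Nlrc5. GB2 tumor 3 was highest in 6 genes, PBS tumor 2 in H2-K1 and Psmb8, and PBS tumor 1 in Tap2 and Psmb10.

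The direction of the 10 genes changed with the tumor left out. All 10 were lower in GB2 tumors without GB2 tumor 3, with a median log2 fold change of -0.53. Without PBS tumor 3 there were 2 of 10 higher, with a median of -0.44. Without PBS tumor 1 and without GB2 tumor 1 there were 8 of 10 higher each, with medians of 0.28 and 0.29, without PBS tumor 2 there were 6, with a median of 0.21, and without GB2 tumor 2 there were 5, with a median of 0.01. None of the 10 had an adjusted p under 0.05 in any of these edgeR fits.

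The immunoproteasome subunits were set against the constitutive subunits they replace, as a ratio of FPKM within each tumor. Psmb8 over Psmb5 was 0.0372, 0.0953 and 0.00404 in PBS tumors, against 0.0217, 0.0221 and 0.0578 in GB2 tumors. Psmb9 over Psmb6 was 0.0723, 0.147 and 0.00382 in PBS tumors, against 0.0185, 0.0681 and 0.146 in GB2 tumors. In both ratios PBS tumor 3 was lowest and PBS tumor 2 highest, with the GB2 tumors between them. Psmb10 over Psmb7 was 0.267, 0.497 and 0.248 in PBS tumors, against 0.225, 0.283 and 0.597 in GB2 tumors, so by transcript per length the constitutive subunit exceeded its counterpart in every tumor and pair.

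**Figure D3:**
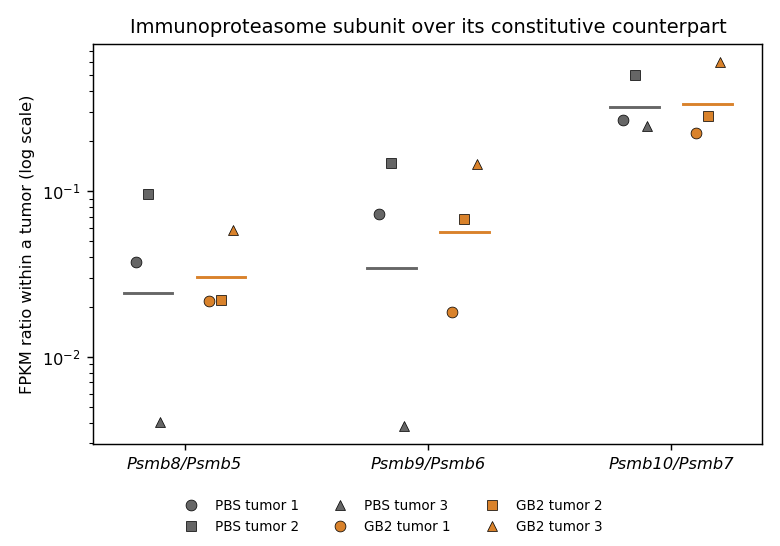
FPKM of each immunoproteasome subunit divided by that of its constitutive counterpart in the same tumor, on a log scale. Grey symbols are PBS tumors, orange symbols GB2 tumors, and lines are the means of the log values. PBS and GB2 tumors overlap in all 3 ratios, and Psmb8 over Psmb5 reaches from 0.00404 to 0.0953 within the PBS group.

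The mean log2 ratios were higher in GB2 than in PBS tumors. The differences were 0.32 for Psmb8 over Psmb5, 0.73 for Psmb9 over Psmb6 and 0.07 for Psmb10 over Psmb7. All 3 turned to lower in GB2 tumors without PBS tumor 3, at -0.98, -0.86 and -0.12, and stood at 1.30, 1.78 and 0.39 without PBS tumor 2. Psmb8 over Psmb5 was also lower without GB2 tumor 3 (-0.15), and Psmb10 over Psmb7 without GB2 tumor 3 (-0.34) and without PBS tumor 1 (-0.061). The exact two-sided permutation tests gave p = 0.9, 0.9 and 0.8, all 0.9 after adjustment over the 3 ratios, where 3 tumors against 3 cannot give less than 0.1. Psmb5 had 166, 73.3 and 76.8 CPM in PBS tumors, against 70.6, 79.3 and 75.9 CPM in GB2 tumors. PBS tumor 1 was highest in Psmb5, Psmb6 and Psmb7 alike, and their log2 fold changes were -0.48, -0.38 and -0.44, with edgeR adjusted p values of 0.776, 0.781 and 0.798. PBS tumor 1 was also the tumor with the highest erythroid marker sum, whose part in these levels was not tested. In edgeR Psmb8, at -0.81, had a lower log2 fold change than Psmb5, at -0.48, opposite in direction to the mean log2 ratio of this pair. The other pairs did not differ in this way.

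Among the nonclassical class I genes, which present special ligands or serve other receptors, 13 of 15 listed genes were tested. Of these, 7 were higher and 6 lower in GB2 tumors, with a median log2 fold change of 0.04, and 0 passed the adjusted test. H2-T24, a nonclassical heavy chain gene, was the only 1 with an unadjusted p under 0.05. It had 0.440, 0.539 and 0.538 CPM in PBS tumors, against 1.77, 1.503 and 1.62 CPM in GB2 tumors. The groups did not overlap, as in 15.3% of all genes tested. The PBS values rest on 26, 38 and 38 counts, which at about 4 counts per read pair is few reads. Its log2 fold change was 1.69 (SE 0.34) with an edgeR adjusted p of 0.234, and DESeq2 gave an adjusted p of 0.0056.

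H2-Q10 had the lowest fitted value of this list, a log2 fold change of -1.03 with an edgeR adjusted p of 0.789, and its groups did not overlap, at 6.90, 8.98 and 10.2 CPM for PBS against 0.488, 6.67 and 5.59 CPM for GB2. H2-M2 had the highest, but with 0, 4 and 0 counts in the PBS and 12, 15 and 13 counts in the GB2 tumors it lies near the limit of detection and no fold is given. H2-Q2 had 0 counts in every tumor, and H2-T3 had 4 in GB2 tumor 3 and 0 in the others. The H2-Q and H2-T genes resemble each other, so reads may be divided between them in ways the table cannot show. PBS tumor 3 and GB2 tumor 1 were the lowest pair in 8 of the 13 tested genes of this list, among them H2-Q4, H2-T22 and H2-T23.

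The other loading factors, which are chaperones and peptide trimming enzymes, had 5 of 9 genes higher, a median of 0.02 and 0 at an unadjusted p under 0.05. They ran from Pdia3, the thiol oxidoreductase of the loading complex, at a log2 fold change of -0.62 (edgeR adjusted p 0.779) to Tapbpl, a tapasin homologue, at 0.36 (0.857). The proteasome activator and assembly genes had 2 of 5 higher, a median of -0.21 and 0 at an unadjusted p under 0.05. Their ends were Pomp, an assembly chaperone, at -0.76 (0.759) and Psme3, an activator subunit, at 0.19 (0.799). PBS tumor 1 carried the difference of both low genes, with 1971 CPM of Pdia3 against 712 and 645 in PBS tumors 2 and 3 and 703 to 736 in GB2 tumors, and 285 CPM of Pomp against 96.6 and 81.5, with 86.6 to 100.1 in GB2 tumors. The lowest pair of tumors was again PBS tumor 3 and GB2 tumor 1 in Psme1 and Psme2, the interferon-inducible activator subunits, and in Erap1, which trims peptides in the endoplasmic reticulum, and Lap3.

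Of the 14 listed regulators of class I transcription, 11 were higher and 3 lower in GB2 tumors, with a median of 0.25, and 0 passed the adjusted edgeR test. Irf9, the DNA-binding part of the type I interferon response factor, had 12.7, 21.6 and 13.2 CPM in PBS tumors, against 32.6, 31.3 and 41.1 CPM in GB2 tumors. The groups did not overlap, and the log2 fold change was 1.15 (SE 0.26, unadjusted p 0.00274, adjusted p 0.276 in edgeR). DESeq2 gave Irf9 an adjusted p of 0.0126. It had the highest fitted value of the list.

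Rfxap, a subunit of the RFX complex that binds class I and class II promoters, had 27.3, 20.8 and 17.6 CPM in PBS tumors, against 13.7, 14.0 and 15.1 CPM in GB2 tumors. It had the lowest fitted value, -0.62 (SE 0.22), with an unadjusted p of 0.0247 and an adjusted p of 0.619 in edgeR and with groups that did not overlap.

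Irf1, an interferon-induced activator of class I promoters, had 42.7, 51.4 and 11.2 CPM in PBS tumors, against 21.1, 35.0 and 65.4 CPM in GB2 tumors. It had the same lowest pair and the same highest tumor as H2-D1, Tap1 and Psmb9, and a log2 fold change of 0.21 (SE 0.59, edgeR adjusted p 0.933). Ciita, the class II transactivator, was the only other of the 14 regulators with that lowest pair.

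Among interferons, their receptors and signalling genes, 9 of 10 tested genes were higher and 1 lower, with a median of 0.30 and 0 at an unadjusted p under 0.05. Socs1, a feedback inhibitor, had the highest fitted value, 1.06 (edgeR adjusted p 0.837), on 0 to 71 counts in a tumor, and Ptpn2, a phosphatase that acts on the same pathway, the lowest, -0.46 (0.757). Ifng, the gene of interferon gamma, did not pass the filter. It had 4, 20 and 0 counts in PBS tumors, against 0, 0 and 8 in GB2 tumors, too few to compare. Ifnb1 had 4 counts in GB2 tumor 3 and 0 in the others.

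Markers of the cells that a tumor can hold were summed in the same tumors. T cell markers summed to 2.50, 6.20 and 0.467 CPM in PBS tumors, against 0.881, 1.98 and 4.25 CPM in GB2 tumors. PBS tumor 3 and GB2 tumor 1 were the lowest pair in this sum and in 4 of the 7 markers tested, Cd3d, Cd3e, Cd3g and Cd8a, but on few counts. Cd3d had 4 counts in both GB2 tumor 1 and GB2 tumor 2, which is a tie before scaling, and Cd3e had 4 and 7. In PBS tumor 3, 6 of the 9 T cell markers had 0 counts, among them Cd3d, Cd3e, Cd3g and Trac, and in GB2 tumor 1 there were 3, with Cd3g and Trac among them. Of the 7 T cell markers tested, 1 was higher and 6 lower in GB2 tumors, and 0 had an unadjusted p under 0.05.

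NK and cytotoxic markers summed to 2.13, 3.16 and 0.481 CPM in PBS tumors, against 1.64, 2.104 and 5.25 CPM in GB2 tumors. Single markers did not share this order, since PBS tumor 3 and GB2 tumor 1 were the lowest pair in 2 of the 7 tested, Nkg7 and Gzmk, and Eomes alone gave 1.05 of the 2.13 CPM of PBS tumor 1. In PBS tumor 3, 5 of these 9 markers had 0 counts, and Ncr1 had 3 counts in GB2 tumor 2 and 0 in the others. Of 7 tested, 6 were higher and 0 had an unadjusted p under 0.05. The part of T and NK cells in the levels of the 10 genes was not tested.

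**Figure D4:**
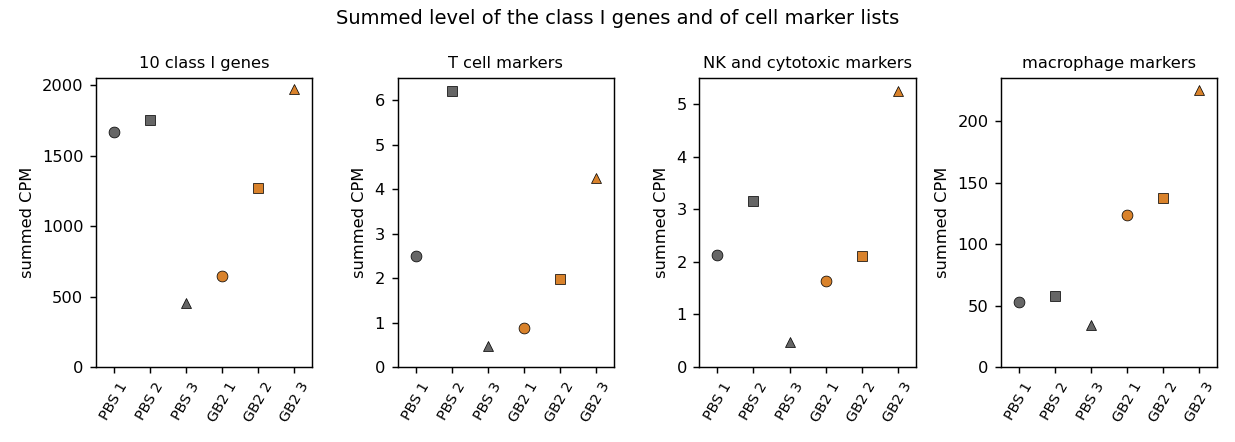
Summed CPM of the 10 class I and immunoproteasome genes and of the T cell, NK and cytotoxic, and macrophage markers in each tumor, with PBS tumors in grey and GB2 tumors in orange. PBS tumor 3 and GB2 tumor 1 have the lowest sums in the first 3 panels, although per gene they are the lowest pair in 9 of 10, 4 of 7 and 2 of 7 tested genes, whereas all GB2 tumors exceed all PBS tumors in the macrophage markers.

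The macrophage markers gave another picture, at 53.0, 57.6 and 34.5 CPM in the PBS and 124, 138 and 225 CPM in the GB2 tumors. All 10 of them had an unadjusted p under 0.05 in edgeR and groups that did not overlap, with a median log2 fold change of 1.94. Of all genes tested, 6.94% had such a p and 15.3% had groups that did not overlap. None passed the adjusted edgeR test, while DESeq2 gave 7 of them an adjusted p under 0.05. Over the whole table DESeq2 called 373 of the 22545 genes to which it gave an adjusted p. None of the 10 macrophage markers was at 0 counts in any tumor. Summed over the 10 class I and immunoproteasome genes, the tumors had 1667, 1752 and 457 CPM in the PBS group and 646, 1270 and 1973 CPM in the GB2 group, so macrophage markers were higher in all GB2 tumors while this sum was not.

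Of the other lists, those of fibroblasts (8 of 8 genes), endothelial cells (6 of 7), neutrophils (4 of 5), skeletal muscle (3 of 6) and dendritic cells (1 of 6) held tested genes that were higher in GB2 tumors at an unadjusted p under 0.05, and so did the epithelial markers (1 of 6). In the erythroid list all 6 were lower, 4 of them at an unadjusted p under 0.05. The lists of B cells, keratinocytes and adipocytes had 0 such genes in either direction. Dendritic cell markers summed to 8.46 to 11.2 CPM in the PBS tumors and 14.6 to 17.4 CPM in the GB2 tumors. Most of this sum was Zbtb46, whose groups overlapped at 6.32 to 8.26 against 8.18 to 9.67 CPM, and Itgax, at 0.863 to 2.09 against 3.79 to 5.99 CPM. The part of these other cell types in the levels of the 10 genes was not tested.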

How the data were processed

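Poly(A) RNA of 6 MC38 tumors, 3 per group, was sequenced as paired reads from libraries that mark strand by dUTP. The authors deposited 1 table that gives, for each gene and tumor, its FPKM and an estimated count. The submitters' processing notes name cutadapt 1.9, HISAT2 2.2.1, StringTie 2.1.6, DESeq2, edgeR and mm10. Whether counting used strand is not given in the sources used here. Low counts pile up at multiples of 4 (7017 values of 4, 2984 of 3 and 2017 of 5), so counting error is larger than the counts alone would give. Positions in the table equal those of GENCODE M21 on GRCm38 for 641 of 31999 shared genes (2.00%).

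The table held counts, so these whole numbers were tested in R 4.3.3 with edgeR 4.0.16: filterByExpr with a minimum count of 10, TMM scaling (factors 0.914 to 1.04), glmQLFit and glmQLFTest, GB2 against PBS, with Benjamini-Hochberg adjustment over 19602 genes. The biological coefficient of variation was 40.5%. Calls used the limits of the study, 2-fold and 0.05 for the adjusted p. Intervals are 95%. Alternatives were DESeq2 1.42.0, limma 3.58.1 on log2(FPKM + 1) or log2(FPKM + 0.1), 2 other scalings, no filter, counts divided by 4, a replicate block and each tumor left out. Ratios of FPKM were tested by exact permutation of the tumors, two-sided. Counts were simulated for this comparison, with changes put on genes drawn at random, whatever their spread. Of these, edgeR (18878 genes) called 2 of 70 changed 2-fold, 46 of 59 changed 4-fold and 68 of 71 changed 8-fold, with 11 unchanged genes. DESeq2 (19602 genes) called 21, 52 and 70 of them, with 64 unchanged genes.

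The members, the pathway and marker lists and the tests were chosen with earlier results of these data known. Named were the 10 genes, Psmb5, Psmb6, Psmb7, Ifng and Irf1, and from each pathway list the highest and lowest fitted values and the genes with an unadjusted p under 0.05. 1 gene of this rule is not reported here. Other genes were named after their values were seen. Figures were drawn with matplotlib 3.10.9.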

Additional observations from a re-analysis of the deposited data

How the results depend on the processing

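With all tumors kept, RLE and upper-quartile scaling, no filter, counts divided by 4 and DESeq2 left the direction of each of the 10 genes as it was, and DESeq2 called 373 genes of the whole table where edgeR and limma called 0. On log2(FPKM + 1), limma gave Tap2 a log2 fold change of 0.11 and Psmb9 one of 0.013, and on log2(FPKM + 0.1) they were 0.20 and 0.32, opposite in sign to the edgeR fit. Psmb8 was at -0.26 and -0.061 in these fits, and the median of the 10 genes was 0.14 and 0.24 with 7 of 10 higher in both. With a replicate block Tap2 was at 0.054, 0 genes were called, and 957 genes in place of 1360 had an unadjusted p under 0.05. The labels do not say whether equal tumor numbers mark pairs. No pairing was evident: after subtracting group means, the correlations across genes between same-numbered tumors were 0.03, 0.15 and -0.24. With 3 tumors per group these values cannot exclude it. The cause of these shifts was not tested. Of 140 alternative values of the 10 genes, 20 had the opposite sign and 0 passed the adjusted test. When 1 tumor at a time was omitted, log2 fold changes ran from -0.35 to 0.56 for H2-D1, -0.42 to 0.40 for B2m, -0.20 to 1.13 for Tap1, -0.63 to 0.55 for Tap2, -0.13 to 0.30 for Tapbp, -1.32 to 0.33 for Psmb9, -0.69 to 0.11 for Psmb10 and -0.43 to 1.10 for Nlrc5. H2-K1 (-0.70 to -0.03) and Psmb8 (-1.44 to -0.33) kept their sign. The ratios ran from -0.98 to 1.30 for Psmb8 over Psmb5, -0.86 to 1.78 for Psmb9 over Psmb6 and -0.34 to 0.39 for Psmb10 over Psmb7. The number of the 10 genes at an unadjusted p under 0.05, and the number with groups that did not overlap, lay between 0 and 1, the 1 being Psmb8 without PBS tumor 3, where 2204 of all 20695 genes tested also had an unadjusted p under 0.05 and where, among the 19602 genes of the full comparison, the groups did not overlap in 30.6%. The lowest count of the 10 genes was 51, in Psmb9, which at about 4 counts per read pair is few reads, and the shares of depth and of differences between tumors in the spread were not separated. A change of 2-fold would mostly be missed by edgeR, by the simulation. Its changed genes were drawn at random, whatever their spread. The median SD of log2 CPM within groups was 1.14 for the 10 genes and 0.414 for all genes tested. The shares found in the simulation need not hold for the 10 genes, and larger changes in them could be missed too.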
